A study of Mus musculus with 6 samples.

Results

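Genes by which regulatory T cells are recognised were examined in whole thymus of miR-181d transgenic mice and wild type mice. The set held 10 genes, namely Foxp3, Ctla4, Tnfrsf18, Tnfrsf4, Tnfrsf9, Gpr83, Lrrc32, Izumo1r, Nrp1 and Icos, and every probe that the platform annotation lists under one of these symbols was taken. This gave 22 probes of 9 genes, among 45281 probes of 19057 genes on the array. No probe is listed under Lrrc32, which encodes GARP, the surface anchor of latent TGF-beta, so it was not measured here. The set and the gene lists used below were chosen with earlier results of these data known. Counts among them are therefore descriptions.

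Thymus was taken from 3 Tg-38 mice and 3 wild type mice, each measured on 1 Illumina MouseWG-6 v2 array, with C57BL/6 given as the strain of both groups. Tg-38 is 1 transgenic line carrying a primary miR-181d fragment in the VA-hCD2 cassette, which uses human CD2 control sequences to express it in thymocytes and peripheral T cells. The wild type mice carry no transgene, and no mouse of either group is labelled as treated. The labels give no age or sex, and the methods place the animals of all experiments at a few weeks of age. The labels name the cell type as thymocyte but the tissue as whole thymus, so each value is an average over thymocytes and all other cells of the organ. In such bulk RNA, fewer cells of a type and less RNA per cell cannot be told apart. No probe is listed under miR-181d, so the level of the transgene's product could not be checked on these arrays.

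Regulatory T cells hold other T cells in check, and most of them arise in the thymic medulla from CD4 cells whose receptor binds self-antigen. A strong receptor signal together with CD28 first switches on the IL-2 receptor and a group of TNF receptors, GITR, OX40 and 4-1BB, and IL-2 acting through STAT5 then switches on Foxp3, the transcription factor that fixes the lineage. These cells are a small minority of the thymus. The miR-181 family tunes the strength of T cell receptor signalling in thymocytes. A microRNA binds transcripts through its seed, the bases 2 to 8 counted from the 5′ end. The mature sequences from RefSeq (GRCm38.p6) are shown because the transgene adds one member of a family that shares its seed, which is given in capitals.
miR-181d-5p (chr8:84178759-84178781, - strand): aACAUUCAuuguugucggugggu
miR-181c-5p (chr8:84178924-84178945, - strand): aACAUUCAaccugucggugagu
miR-181a-5p (chr1:137966468-137966490, + strand, and chr2:38852741-38852763, + strand): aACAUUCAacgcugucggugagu
miR-181b-5p (chr1:137966650-137966673, + strand, and chr2:38853845-38853868, + strand): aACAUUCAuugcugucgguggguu

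The level of each probe was read in 2 ways. The bead signal is the average brightness of a probe's beads, a linear intensity that was not normalized between arrays. The normalized level is the log2 of this signal after background correction and quantile normalization, and the change is the Tg-38 mean minus the wild type mean of the normalized levels, tested with limma and adjusted over all probes tested. Detection means a p-value under 0.05 against the negative control beads of the same array. The median bead signal of all probes was 123 to 129 on the Tg-38 arrays and 129 to 140.7 on the wild type arrays, and 17972 to 18464 probes were detected on the Tg-38 arrays and 17674 to 18526 on the wild type arrays. Over all probes tested, the median difference of the log2 bead signal, Tg-38 minus wild type, was -0.16, while the median change after normalization was -0.01. The bead signal and the normalized level can therefore order the 2 groups differently, and both are given. Probes differ in their binding, so levels of different probes are not compared.

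Of the 22 probes, 14 were detected on all 6 arrays and 4 on none. Transcripts of 8 of the 10 genes had at least 1 probe detected on every array, Izumo1r and Lrrc32 being the exceptions. A probe was tested when it was detected on at least 3 arrays, which held for 17 probes of 9 genes. The 5 probes left out were 1 of Foxp3, 1 of Tnfrsf9, 1 of Gpr83 and 2 of Izumo1r, with bead signals between 114 and 155.3. Both genotypes thus held transcripts of Foxp3, Ctla4, Tnfrsf18, Tnfrsf4, Tnfrsf9, Gpr83, Nrp1 and Icos, as the plot of bead signals shows.

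**Figure D1:**
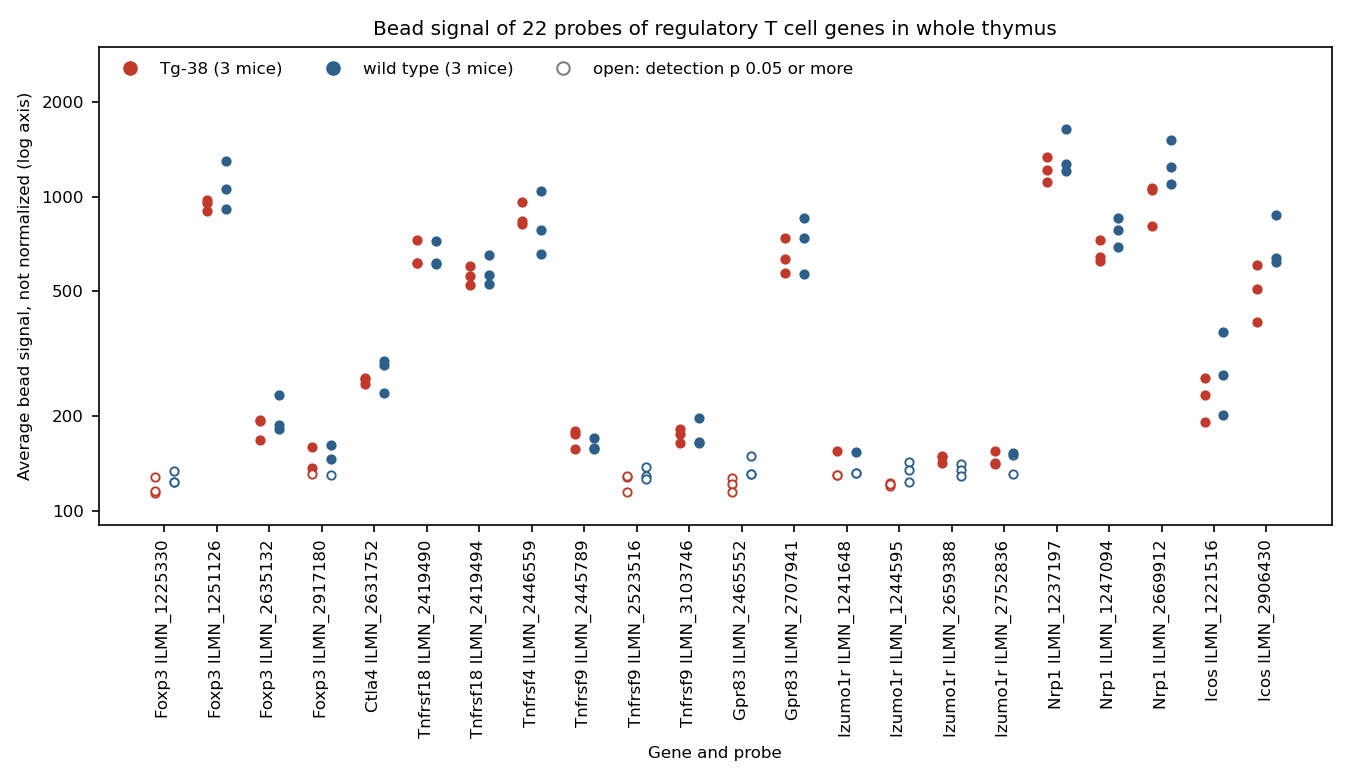
Average bead signal on a log axis, not normalized, of the 22 probes of regulatory T cell genes, with 1 point per mouse, Tg-38 left of wild type. Open points have a detection p of 0.05 or more. The 5 probes that were not tested all lie between 114 and 155.3.

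Of the 17 probes tested, 1 was higher in Tg-38 at an adjusted p under 0.05, a probe of Izumo1r, and 0 were lower, where over all probes 0.801% were higher and 0.300% lower. Without adjustment, p was under 0.05 for 4 higher probes (23.5%) and 0 lower ones, against 8.55% and 8.48% of all probes. These 4 belong to Tnfrsf18, Tnfrsf4, Tnfrsf9 and Izumo1r. The same 4 had all 3 Tg-38 levels above all 3 wild type levels after normalization, which held for 11.4% of all probes, and 0 had all Tg-38 levels below, which held for 11.2%. In the bead signal before normalization, 1 of the 17 probes had all Tg-38 arrays above (0.959% of all probes) and 2 had all Tg-38 arrays below (31.0% of all probes). The Izumo1r probe was detected on no wild type array and entered the test only through the Tg-38 arrays. Such a filter favours a higher Tg-38 level, so its place among the higher probes is no separate support. Among the 16 probes detected in both groups, 3 (18.8%) were higher at an unadjusted p under 0.05. The change was above 0 for 14 of the 17 probes and ranged between -0.34 and 0.74, with a median of 0.15 (0.12 over the 16 probes detected in both groups) against -0.01 over all probes tested. With median scaling in place of quantile normalization, the median of all tested probes moved to -0.14, 9 of the 17 changes were above 0 and their median was 0.00, while 12 lay above the median of all probes and the median stood 0.15 above it. The median change was 0.05 without Tg-38 replicate 1 and 0.06 without wild type replicate 3, with 12 of 17 above 0 in each. The standard errors were 0.10 to 0.27, with a median of 0.13.

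**Figure D2:**
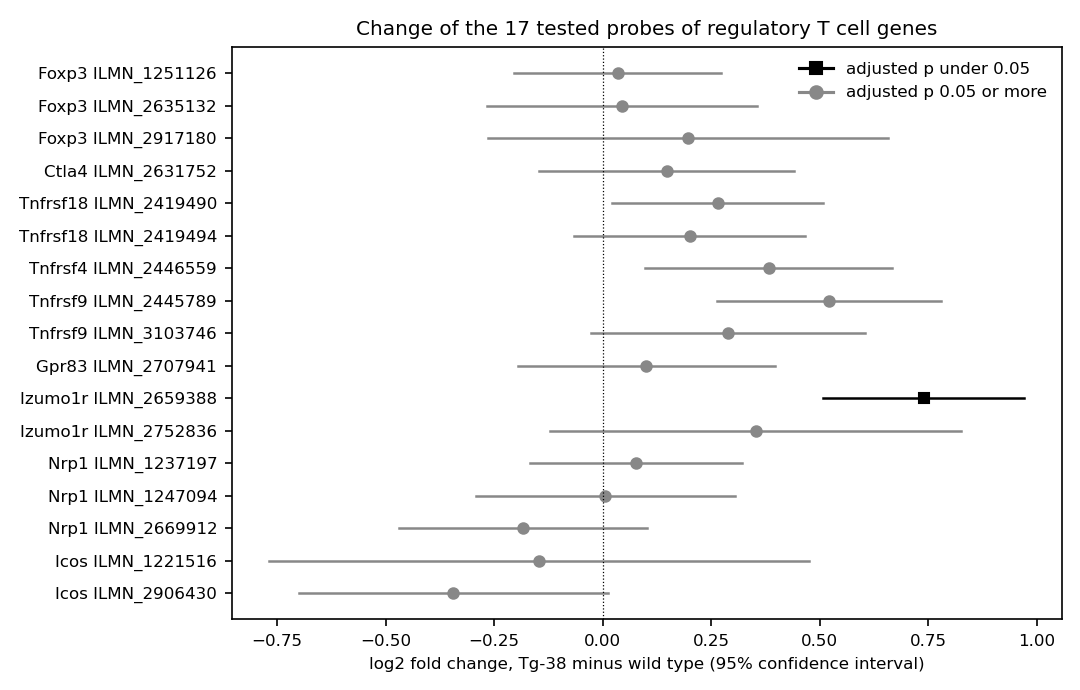
Log2 fold change, Tg-38 minus wild type, of the 17 tested probes, with 95% confidence intervals from limma (3 mice per group). The black square marks the Izumo1r probe at 0.74, with an adjusted p of 0.0236, and grey circles have an adjusted p of 0.05 or more.

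Foxp3, the lineage-defining transcription factor, is covered by 4 probes. Its brightest probe, ILMN_1251126, had bead signals of 975.4, 954.9 and 898.6 on the Tg-38 arrays and 1301.7, 1061.1 and 912.2 on the wild type arrays. The normalized log2 levels were 9.82, 9.88 and 9.84 in Tg-38 and 9.91, 9.82 and 9.72 in wild type. The groups overlapped on both scales, with the 3 Tg-38 mice lying inside the wild type range after normalization. The change was 0.04 (95% confidence interval -0.20 to 0.27, limma adjusted p = 0.899), an interval of 0.868-fold to 1.21-fold.

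The second Foxp3 probe detected on every array, ILMN_2635132, had bead signals of 193.3, 193.8 and 167.5 in Tg-38 and 234, 187.7 and 182.1 in wild type. Its groups overlapped too, and its change was 0.05 (95% confidence interval -0.27 to 0.36, limma adjusted p = 0.899). The third, ILMN_2917180, was near the detection limit, with 2 of 3 arrays detected in each group, and changed by 0.20 (95% confidence interval -0.27 to 0.66, limma adjusted p = 0.671). The fourth, ILMN_1225330, was detected on no array. No Foxp3 probe passed the test. With median scaling the first 2 probes changed by -0.15 and -0.07, which relative to the median of all probes under that scaling was -0.01 and 0.07.

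Ctla4 encodes an inhibitory receptor that takes the CD80 and CD86 ligands away from CD28, and it has 1 probe. Its bead signals were 263.4, 264.4 and 252.5 in Tg-38 and 298.6, 291.3 and 237.3 in wild type. The Tg-38 signals lay within the wild type range, where wild type replicate 3 was the lowest of the 6. The normalized change was 0.15 (95% confidence interval -0.15 to 0.44, limma adjusted p = 0.609).

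Tnfrsf18 encodes GITR, Tnfrsf4 encodes OX40 and Tnfrsf9 encodes 4-1BB, costimulatory receptors that signal through TRAF proteins to NF-kB and that developing regulatory T cells carry at high levels. None of their 5 tested probes passed the adjusted threshold, while all 5 changes were above 0.

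Tnfrsf9 is covered by 3 probes. Its probe ILMN_2445789 had bead signals of 178.9, 175.1 and 157.6 in Tg-38 and 170, 158.1 and 156.6 in wild type, not far above those of undetected probes. After normalization the log2 levels were 6.20, 6.30 and 6.05 in Tg-38 and 5.59, 5.64 and 5.75 in wild type. All Tg-38 levels lay above all wild type levels after normalization, but the bead signals overlapped. The change was 0.52 (SE 0.11, 95% confidence interval 0.26 to 0.78), or 1.44-fold, with an adjusted p of 0.0719 by limma. It was 0.19 without background correction and 0.22 with the authors' processed values, to which 16 was added before the log2 transform. The second tested probe, ILMN_3103746, had bead signals of 182.2, 163.9 and 175.6 in Tg-38 and 196.6, 165 and 164.8 in wild type, with a change of 0.29 (95% confidence interval -0.03 to 0.60, limma adjusted p = 0.334) and overlapping groups. The third, ILMN_2523516, was detected on no array.

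Tnfrsf4 has a single, bright probe. Its bead signals were 963.3, 839.7 and 820.8 in Tg-38 and 1043.8, 783.5 and 655.7 in wild type, and the groups overlapped because wild type replicate 1 had the highest signal. The normalized log2 levels were 9.80, 9.67 and 9.70 in Tg-38 and 9.54, 9.33 and 9.16 in wild type, and here the groups did not overlap. The change was 0.38 (SE 0.13, 95% confidence interval 0.10 to 0.67), or 1.30-fold, with an adjusted p of 0.179 by limma.

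Tnfrsf18 has 2 probes, both detected on all arrays. For ILMN_2419490 the bead signals were nearly equal in the groups, at 726.2, 614 and 613.1 in Tg-38 and 721.7, 615 and 611 in wild type. Its normalized log2 levels were 9.32, 9.14 and 9.23 in Tg-38 and 8.94, 8.92 and 9.04 in wild type, so the separation of the groups appeared only after normalization. The change was 0.27 (SE 0.11, 95% confidence interval 0.02 to 0.51, limma adjusted p = 0.255), and with median scaling 0.08, or 0.23 relative to the median of all probes. For ILMN_2419494 the groups overlapped on both scales, with a change of 0.20 (95% confidence interval -0.07 to 0.47, limma adjusted p = 0.430). Tnfrsf4 and Tnfrsf18 lie next to each other on chromosome 4 with no protein-coding gene between them, whereas 83 protein-coding genes lie between Tnfrsf9 and Tnfrsf4.

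**Figure D3:**
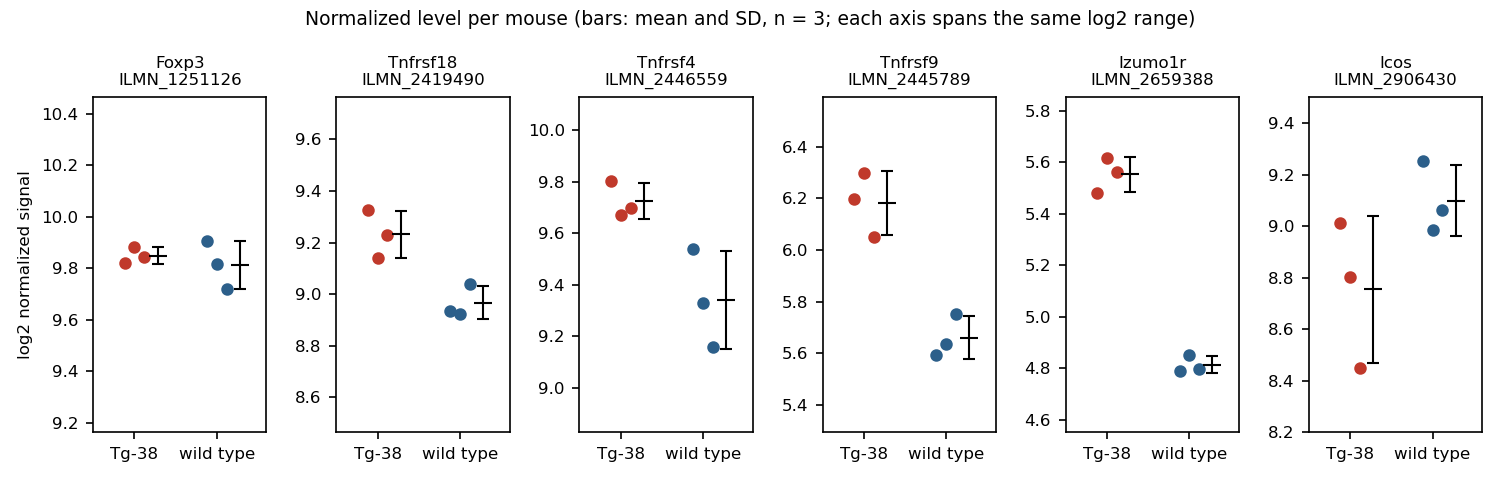
Normalized log2 level per mouse for 6 probes, Tg-38 left of wild type, with the mean and SD of 3 mice. Tnfrsf18, Tnfrsf4, Tnfrsf9 and Izumo1r have all Tg-38 points above all wild type points, and Foxp3 and Icos overlap. Each vertical axis spans the same log2 range but starts at its own level.

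Izumo1r encodes folate receptor 4, which in mice marks regulatory T cells and anergic CD4 T cells. Its probe ILMN_2659388 had bead signals of 149.2, 148 and 142 in Tg-38 and 140.3, 134.3 and 128.9 in wild type. All 3 Tg-38 arrays lay above all 3 wild type arrays on this scale too, but the gap between the lowest Tg-38 and the highest wild type signal was small, and the ratio of the mean signals was 1.09. The probe was detected on 3 of 3 Tg-38 arrays and on 0 of 3 wild type arrays. The normalized log2 levels were 5.48, 5.62 and 5.56 in Tg-38 and 4.79, 4.85 and 4.80 in wild type, a change of 0.74 (SE 0.10, 95% confidence interval 0.51 to 0.97, limma adjusted p = 0.0236). Since the probe was not detected in wild type, only a bound can be given. On the normalized scale the Tg-38 mean was at least 1.32-fold higher, set against the lowest detected level of each wild type array. This bound depends on the background correction, without which the log2 change was 0.22, smaller than the bound.

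The call for Izumo1r did not hold under every choice. Its change stayed above 0 in all 15 alternatives that gave it a value but was only 0.22 without background correction, and the adjusted p ranged between 0.0182 and 0.116. The call was lost in 9 of the 15, among them leaving out any of Tg-38 replicates 1, 2 and 3 or wild type replicates 1 and 3 (adjusted p 0.0633 to 0.111 by limma). The other Izumo1r probes gave no second call. ILMN_2752836 was detected on 3 Tg-38 arrays and 1 wild type array, with bead signals of 155.4, 141.3 and 140.4 in Tg-38 and 150.9, 130.9 and 153.1 in wild type, and its change was 0.35 (95% confidence interval -0.12 to 0.83, limma adjusted p = 0.437). ILMN_1241648 was detected on 1 array of each group and ILMN_1244595 on none, and neither was tested.

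Gpr83, a neuropeptide receptor gene transcribed at high levels in mouse regulatory T cells, is the neighbour of Izumo1r on chromosome 9 with no annotated gene between them. Its detected probe, ILMN_2707941, had bead signals of 737.8, 631.1 and 570.8 in Tg-38 and 856.5, 740.9 and 565.9 in wild type. The groups overlapped, with a normalized change of 0.10 (95% confidence interval -0.20 to 0.40, limma adjusted p = 0.747) that was -0.09 with median scaling, or 0.05 relative to the median of all probes. Its other probe, ILMN_2465552, was detected on no array.

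Nrp1 encodes neuropilin-1, a semaphorin and VEGF coreceptor that mouse regulatory T cells made in the thymus carry, and that endothelium and other cells express as well. Its 3 probes were bright and detected on every array. ILMN_1237197 had bead signals of 1336.1, 1216.3 and 1111.9 in Tg-38 and 1646.2, 1275.2 and 1208.4 in wild type, with a change of 0.08 (95% confidence interval -0.17 to 0.32, limma adjusted p = 0.764). ILMN_1247094 changed by 0.01 (95% confidence interval -0.29 to 0.30, limma adjusted p = 0.986). With median scaling these 2 changes were -0.11 and -0.18, or 0.03 and -0.04 relative to the median of all probes. ILMN_2669912 had bead signals of 1069, 1049.4 and 807.3 in Tg-38 and 1519.5, 1245.2 and 1100.9 in wild type. All 3 Tg-38 signals of this probe were below all wild type signals before normalization, but the normalized levels overlapped and the change was -0.18 (95% confidence interval -0.47 to 0.10, limma adjusted p = 0.506).

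Icos encodes a costimulatory receptor of the CD28 family, and it was the only gene with all of its tested probes below 0. For ILMN_2906430 the bead signals were 607.7, 508.2 and 399.3 in Tg-38 and 875.7, 638.1 and 619.6 in wild type, with every Tg-38 array below every wild type array. After normalization the log2 levels were 9.01, 8.80 and 8.45 in Tg-38 and 9.25, 8.98 and 9.06 in wild type, and the highest Tg-38 mouse lay above the lowest wild type mouse. The change was -0.34 (SE 0.16, 95% confidence interval -0.70 to 0.01, limma adjusted p = 0.310), and it kept its sign in all 17 alternatives. ILMN_1221516 varied more between mice, with bead signals of 264.2, 191.1 and 233.9 in Tg-38 and 371.1, 271.2 and 201.8 in wild type. Its change was -0.15 (95% confidence interval -0.77 to 0.48, limma adjusted p = 0.831), with 0.09 without Tg-38 replicate 2 and without wild type replicate 1. Icos lies beside Ctla4 on chromosome 1, with no protein-coding gene between them.

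Upstream sequence is shown for the 4 genes with 1 probe apart between the groups after normalization, to set them side by side. They were picked by that result. Each window holds the 250 bases before a transcript start listed by RefSeq (GRCm38.p6), 5′ to 3′ on the gene's strand. Capitals mark matches, on either strand, to letters of motifs bound by factors that act downstream of the T cell receptor and IL-2 receptor. The motifs were AP-1 (TGANTCA, found in 6.75% of 32851 windows of this length), NF-kB (GGGNNTTCC, 4.98%), STAT (TTCNNNGAA, 7.02%), RUNX (TGTGGT, 14.1%) and NFAT (GGAAAA, 20.4%).
Tnfrsf18 (chr4:156026072-156026321, + strand): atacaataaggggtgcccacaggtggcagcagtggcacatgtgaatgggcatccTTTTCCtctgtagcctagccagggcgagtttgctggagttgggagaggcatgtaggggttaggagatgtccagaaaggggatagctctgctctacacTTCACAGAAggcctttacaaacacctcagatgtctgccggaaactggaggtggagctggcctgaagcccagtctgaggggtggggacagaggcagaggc
Tnfrsf4 (chr4:156013445-156013694, + strand): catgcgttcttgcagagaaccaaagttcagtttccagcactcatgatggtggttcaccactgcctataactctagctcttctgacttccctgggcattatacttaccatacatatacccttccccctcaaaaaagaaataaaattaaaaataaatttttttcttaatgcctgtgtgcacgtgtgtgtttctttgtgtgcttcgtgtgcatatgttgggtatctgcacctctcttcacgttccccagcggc
Tnfrsf9, first listed start (chr4:150919905-150920154, + strand): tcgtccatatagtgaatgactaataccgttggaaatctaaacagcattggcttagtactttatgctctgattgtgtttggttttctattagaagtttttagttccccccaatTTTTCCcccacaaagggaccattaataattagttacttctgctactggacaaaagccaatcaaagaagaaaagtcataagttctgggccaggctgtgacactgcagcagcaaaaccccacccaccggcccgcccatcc
Tnfrsf9, second listed start (chr4:150927749-150927998, + strand): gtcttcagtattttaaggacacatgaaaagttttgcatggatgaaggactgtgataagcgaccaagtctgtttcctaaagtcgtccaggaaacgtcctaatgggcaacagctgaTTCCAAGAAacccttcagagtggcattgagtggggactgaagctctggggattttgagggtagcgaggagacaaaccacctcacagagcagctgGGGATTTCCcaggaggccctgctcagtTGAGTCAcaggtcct
Izumo1r (chr9:14903768-14904017, - strand): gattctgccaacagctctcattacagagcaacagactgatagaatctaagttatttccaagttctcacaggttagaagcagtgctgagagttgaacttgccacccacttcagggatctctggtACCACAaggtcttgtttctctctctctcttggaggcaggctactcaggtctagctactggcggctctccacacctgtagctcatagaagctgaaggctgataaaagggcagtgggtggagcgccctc
The first Tnfrsf9 window holds 1 match to NFAT and the second 1 each to AP-1, NF-kB and STAT, the Tnfrsf18 window 1 to NFAT and 1 to STAT, and the Izumo1r window 1 to RUNX. The NFAT and RUNX matches lie on the other strand. The Tnfrsf4 window has no match to these letters. Such matches were not particular to the 4 genes. The second listed Foxp3 window holds 1 match each to STAT and NFAT, and the Ctla4 window 1 to NFAT, with NFAT again on the other strand. The first Foxp3 window and those of Gpr83 and Nrp1 hold none. A match describes the sequence and does not show that a factor binds there, and the arrays measured no binding.

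Other genes that regulatory T cells use were taken from a list of 32 genes, of which 29 had a probe and 18 were tested, each through its brightest probe. Of these 18, 2 were higher in Tg-38 at an adjusted p under 0.05 (Itgae and Hopx) and 1 was lower (Ikzf2), where 0.801% of all probes were higher and 0.300% lower. Without adjustment 8 were higher and 2 lower, against 8.55% and 8.48% of all probes. Their median change was 0.25, against -0.01 over all probes tested. The list was drawn up with earlier results of these data known, so these counts and this median describe it and are no test. Of the other genes with a probe, 9 were detected on no array, among them Il10, the gene of an inhibitory cytokine, and Prdm1, that of a regulator of effector T cells.

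Itgae encodes CD103, an integrin that binds E-cadherin and is carried by many CD8 thymocytes and some dendritic cells besides regulatory T cells. Its log2 levels were 10.28, 9.83 and 10.14 in Tg-38 and 9.24, 9.40 and 9.18 in wild type, with no overlap. It rose by 0.81 (SE 0.14), or 1.75-fold, with an adjusted p of 0.0442 by limma. Its other tested probes changed by 0.37 to 0.87 (limma adjusted p 0.0287 to 0.321). Hopx, the gene of a small homeodomain protein, had log2 levels of 7.13, 6.81 and 7.13 in Tg-38 and 6.15, 6.42 and 5.99 in wild type and rose by 0.84 (SE 0.15, limma adjusted p = 0.0442). Ikzf2 encodes Helios, a transcription factor of regulatory T cells made in the thymus, and also of negatively selected thymocytes. It went the other way, with log2 levels of 7.0, 6.84 and 6.70 in Tg-38 and 7.49, 7.52 and 7.40 in wild type. It fell by 0.62 on the log2 scale (SE 0.12, limma adjusted p = 0.0488), with every Tg-38 mouse below every wild type mouse. The 3 calls were near the threshold. Itgae lost its call without Tg-38 replicates 1 or 3 and wild type replicates 1 or 3 (adjusted p 0.130 to 0.156 by limma), Hopx whichever array was left out except wild type replicate 2 (0.0532 to 0.156), and Ikzf2 whichever of the 6 was left out (0.0682 to 0.163).

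Il2ra, which encodes the IL-2 receptor alpha chain CD25 and is also used by early CD4-CD8- thymocytes, was singled out after its values were seen. Its log2 levels were 7.39, 7.57 and 7.46 in Tg-38 and 7.05, 6.64 and 7.01 in wild type, with no overlap. The change of 0.57 (SE 0.14) had an adjusted p of 0.0892 by limma, and the other tested probe of Il2ra changed by 0.30 (limma adjusted p = 0.228). Nt5e, the gene of the ectoenzyme CD73, changed by 0.63 (SE 0.12, limma adjusted p = 0.0546). Its other tested probe changed by 0.30 with overlapping groups (limma adjusted p = 0.582). Lag3, the gene of an inhibitory receptor for MHC class II, changed by -0.49 (SE 0.14, limma adjusted p = 0.143).

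**Figure D4:**
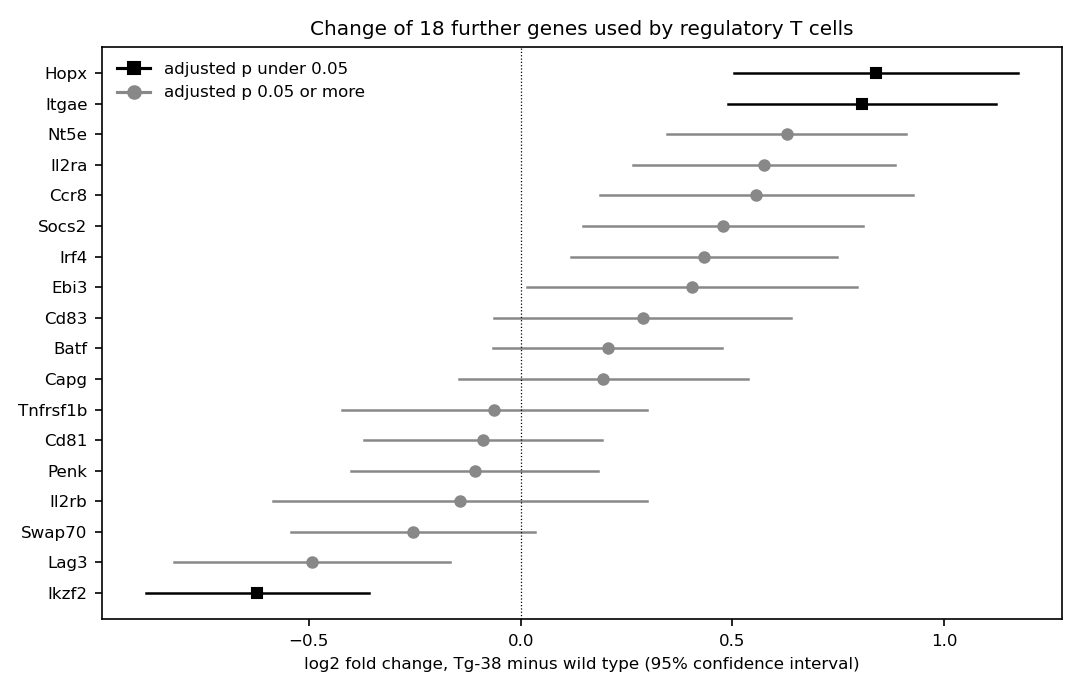
Log2 fold change, Tg-38 minus wild type, of 18 further genes that regulatory T cells use, each through its brightest tested probe, with 95% confidence intervals from limma (3 mice per group). Black squares, with adjusted p under 0.05, are Hopx and Itgae at the top and Ikzf2 at the bottom.

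Among 15 genes for ligands and partners of these receptors, 8 were tested and their median change was 0.23. Past the adjusted threshold 1 gene was higher and 0 genes lower, where 0.801% of all probes were higher and 0.300% lower. This gene was Cd86, a ligand shared by CD28 and Ctla4 that dendritic cells, macrophages and B cells display. Its log2 levels were 9.27, 9.04 and 9.34 in Tg-38 and 7.96, 8.30 and 8.01 in wild type, and it rose by 1.13 (SE 0.14), or 2.19-fold, with an adjusted p of 0.0134 by limma. All 3 of its probes were higher at an adjusted p under 0.05. The call was lost without Tg-38 replicates 1 or 3 or wild type replicates 1 or 3 (adjusted p 0.0642 to 0.0808 by limma). Cd80, the other ligand of this pair, changed by 0.40 (SE 0.11, limma adjusted p = 0.118). The ligand genes of the 3 TNF receptors, Tnfsf18, Tnfsf4 and Tnfsf9, were detected on no array.

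Signalling genes had medians near that of all probes. Of 39 genes that act in the induction of regulatory T cells 27 were tested. The adjusted threshold was passed by 0 in either direction, where 0.801% of all probes were higher and 0.300% lower. With the limma p left unadjusted at 0.05, 1 gene was higher and 2 genes lower, against 8.55% and 8.48% of all probes. The median change was -0.03. The lowest adjusted p-values were those of Runx1, the gene of a DNA-binding partner of Foxp3, at -0.56 (limma adjusted p = 0.0954), and of Ezh2, a histone methyltransferase gene, at -0.51 (limma adjusted p = 0.101). The other tested probe changed by -0.28 for Runx1 (limma adjusted p = 0.402) and by -0.20 for Ezh2 (limma adjusted p = 0.581). Il15, the gene of a cytokine that signals through the IL-2 receptor beta chain, changed by 0.41 (limma adjusted p = 0.209). Of 24 genes of TNF receptor and NF-kB signalling 20 were tested and 0 passed the adjusted threshold in either direction. By the unadjusted p 1 gene was higher and 1 gene lower, against the same 8.55% and 8.48% of all probes, and the median change was -0.03. Traf1, an adaptor gene and itself an NF-kB target, changed by 0.49 (limma adjusted p = 0.0968), and Nfkbia, the gene of the inhibitor of NF-kB, by -0.26 (limma adjusted p = 0.247). The other tested probe changed by 0.19 for Traf1 (limma adjusted p = 0.492) and by -0.25 for Nfkbia (limma adjusted p = 0.486).

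Summed marker signals of several other cell types differed as well, and their part in the values above was not tested. The summed normalized signal of 10 tested of 13 markers of DP (CD4+CD8+) thymocytes was 52957 to 57758 in Tg-38 and 60844 to 61801 in wild type, with Cd8a detected on no array. For mature single-positive T cells, 4 tested of 9, it was 4745 to 5502 in Tg-38 and 3695 to 4439 in wild type, and Il7r was past the adjusted threshold, higher in Tg-38. For macrophages (7 of 9) the sums were 2732 to 2861 in Tg-38 and 1878 to 2171 in wild type. For NK cells (5 of 8, with Klrd1 and Nkg7 past the adjusted threshold and higher in Tg-38, and Eomes, Klrk1 and Ncr1 on no array) they were 3137 to 3831 in Tg-38 and 2038 to 2464 in wild type. For thymic epithelium (4 of 7, with Epcam and Foxn1 on no array) they were 1029 to 1205 in Tg-38 and 651 to 1004 in wild type. For B cells (2 of 5, with Ms4a1 on no array) they were 403 to 488 in Tg-38 and 579 to 739 in wild type. These sums did not overlap between the groups. Of all single probes tested, 11.4% lay apart with Tg-38 higher and 11.2% with Tg-38 lower, and no such share was worked out for sums. The sums overlapped for endothelium (4 of 8, with Vwf on no array), at 465 to 521 in Tg-38 and 483 to 547 in wild type. They also overlapped for dendritic cells (3 of 9), at 1033 to 1330 in Tg-38 and 754 to 1284 in wild type. Of the dendritic cell markers, Itgax, Flt3, Xcr1, Cd209a and Zbtb46 were detected on no array. Each sum is weighted towards its brightest probes. For DP thymocytes these were probes of Cd8b1 and Cd3e, genes that single-positive cells transcribe as well. They changed by -0.13 (limma adjusted p = 0.564) and -0.05 (limma adjusted p = 0.863), and other Cd8b1 probes by -0.47 and 0.11. The brightest epithelial probe, of Krt8, overlapped between the groups. Through the brightest probe of each gene, 0 markers of DP thymocytes, macrophages, thymic epithelium or B cells passed the adjusted threshold. A dimmer probe passed it for Cd79b (lower) and Fezf2 (higher). Changes were above 0 for 1 of 10 DP, 3 of 4 single-positive, 6 of 7 macrophage, 5 of 5 NK, 4 of 4 epithelial and 0 of 2 B cell markers. The median change over all probes tested was -0.01. Of the NK markers, Tbx21 was detected on no wild type array and was tested only through the Tg-38 arrays. Klrb1c changed by 0.03 (limma adjusted p = 0.963) and Prf1 by 0.17 (limma adjusted p = 0.586), each with overlapping groups.

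The 3 genes whose probes were most like the Izumo1r probe over the 6 arrays were Mmp13, Rims3 and Matk, with Pearson r of 0.997, 0.995 and 0.995. The r is over 6 arrays in 2 groups and so holds the difference between the groups, and 161 of 15383 other probes compared had an r above 0.95.

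**Figure D5:**
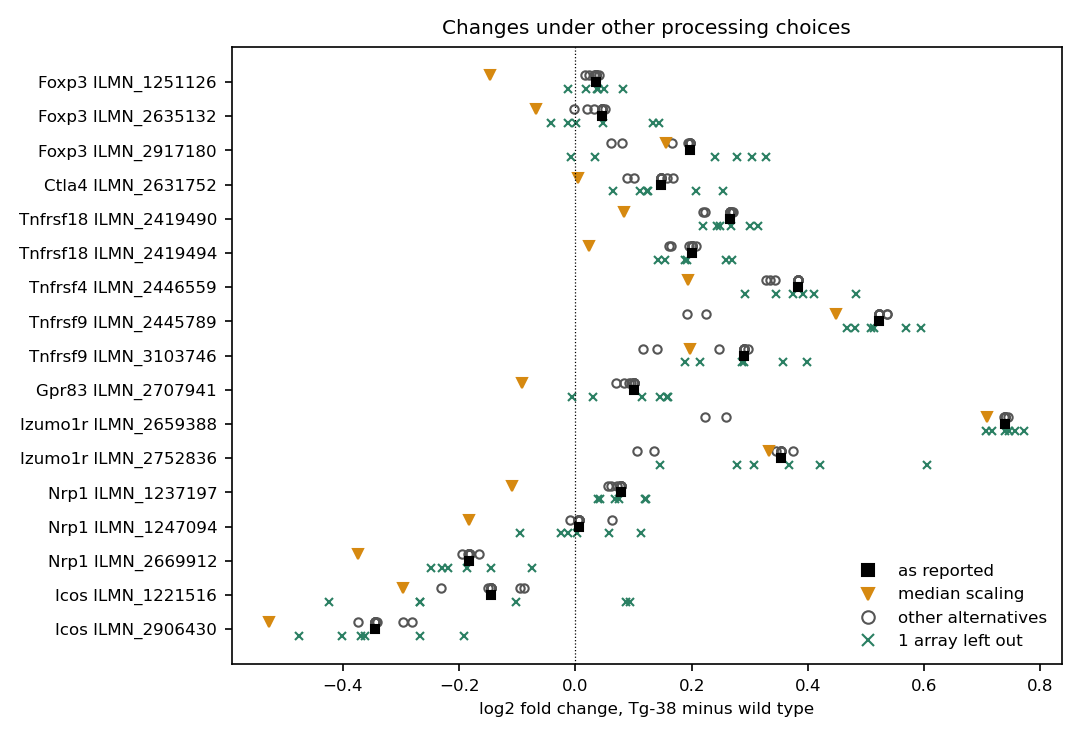
Log2 fold change, Tg-38 minus wild type, of each tested probe as reported (squares), with median scaling (triangles), under other alternatives (circles) and with 1 array left out (crosses). Ctla4, Tnfrsf18, Tnfrsf4, Tnfrsf9 and Izumo1r stay above 0, and Nrp1 ILMN_2669912 and Icos ILMN_2906430 below it. The 3 Foxp3 probes, Gpr83, the other 2 Nrp1 probes and Icos ILMN_1221516 fall on both sides.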

How the data were processed

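Total RNA from whole thymus of 3 Tg-38 and 3 wild type mice was hybridised by the authors to 1 array each and read out with GenomeStudio (version not given in the sources used here). The deposited table holds, for each probe and array, an unnormalized linear intensity (the mean over beads) and a detection p-value. A second deposited table of processed intensity values, whose method is not given in the sources used here, served as an alternative. Before the log2 transform 16 was added to these values, whose medians per array were 1.73 to 2.03. This addition shrinks the changes of dim probes, so they are not the authors' own ratios. Background correction from the detection p-values, quantile normalization and the log2 transform were done with neqc (offset 16, limma 3.58.1, R 4.3.3, statmod 1.5.0). The 18352 of 45281 probes detected on 3 or more arrays (p under 0.05) were compared with lmFit and eBayes, two-sided, with Benjamini-Hochberg adjustment over these probes (4 residual and 4.93 prior degrees of freedom). The number of arrays limits the precision, and nothing beyond the labels says that the mice came from separate litters.

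Gene symbols come from the platform annotation (34885 probes with 1 symbol, 18 with several and 10378 with none). For a probe detected in no array of a group, the bound sets the mean normalized level of the other group against the higher of the probe's level and the lowest detected level on each array. Genes outside the 10 were represented by their brightest tested probe. The genes named were the 10 genes, those of each list passing the adjusted threshold, up to 3 per direction with the smallest p, and the 3 most like a probe that passed, and Il2ra was added after its values were seen. The members and lists were chosen with earlier results of these data known. Alternatives covered background correction, normalization, detection filter, the authors' values, an intensity trend, array weights, the t-test of the methods, a replicate block and leaving out each array. The procedure was also run on simulated data with independent noise and planted changes, which checks the code and does not bear on the calls made here. Upstream windows and microRNAs are from RefSeq tables, and figures were drawn with matplotlib 3.10.9.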

Additional observations from a re-analysis of the deposited data

How the results depend on the processing

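Over 17 alternatives, the 17 tested probes gave 283 changes, of which 257 kept their direction and their side of the threshold, 17 changed sign, 9 lost the call (all of the Izumo1r probe ILMN_2659388) and 0 gained one. The number of probes of regulatory T cell genes called higher, 1, was 0 without background correction, with detection on all 6 arrays or at p under 0.01 (both filters leave the Izumo1r probe untested), with the authors' processed values and with the methods' t-test. That t-test had 4 of these probes higher, 0 lower and 2692 of all probes at an unadjusted p under 0.05. The number was 0 to 1 over the fits that left out 1 array. No alternative called a probe of these genes lower.

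Deviations of same-numbered arrays correlated at 0.03, -0.12 and -0.10, and those of differently numbered arrays at -0.12 to 0.19. With 3 arrays per group these values cannot decide whether the replicate numbers pair the mice. With a replicate block 0 of these probes and 27 of all probes were called.

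Over all probes 202 were called. This was 395 without background correction, 48 without a detection filter, 445 with the authors' values, 481 with an intensity trend, 1 with the methods' t-test, and 20 to 273 with 1 array left out (20 without Tg-38 replicate 3, 21 without Tg-38 replicate 1 or wild type replicate 3, 26 without wild type replicate 1, 65 without Tg-38 replicate 2). The share of calls that were higher, 72.8%, was 35.9% with median scaling, 57.5% with the authors' values, 60.8% without background correction, 61.1% with an intensity trend, 83.3% without a filter, 88.9% with the block, and 82.1% to 95% with 1 array left out.

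Median scaling moved the median of all tested probes to -0.14. It moved the median change of the 17 probes, 0.15, to 0.0043 (0.15 above the median of all probes), and turned Foxp3 ILMN_1251126 (-0.15), Foxp3 ILMN_2635132 (-0.068), Gpr83 ILMN_2707941 (-0.091), Nrp1 ILMN_1237197 (-0.11) and Nrp1 ILMN_1247094 (-0.18). Foxp3 ILMN_2635132 was also at -0.0026 with array weights and Nrp1 ILMN_1247094 at -0.0089 with the authors' values. With 1 array left out the median was 0.050 (without Tg-38 replicate 1) to 0.15, and the probes that turned ranged between -0.013 and 0.082 (Foxp3 ILMN_1251126), -0.042 and 0.14 (Foxp3 ILMN_2635132), -0.0082 and 0.33 (Foxp3 ILMN_2917180), -0.0055 and 0.16 (Gpr83), -0.095 and 0.11 (Nrp1 ILMN_1247094) and -0.42 and 0.095 (Icos ILMN_1221516). The cause was not tested.

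Alternatives for genes outside the 10 were chosen after seeing the data. None changed direction. Itgae lost its call in 8 of 17, Hopx and Ikzf2 in 10 each and Cd86 in 6, while Nt5e gained one in 5, Runx1 in 4, Ezh2 in 3, Traf1 in 2 and Il2ra in 1.

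Signal over background limits the dim probes. Izumo1r, the third Foxp3 probe and Tnfrsf9 lay close to undetected probes, and without background correction the Izumo1r change was 0.22. Tnfrsf9 ILMN_2445789 ranged between 0.19 and 0.60 over the alternatives, with an adjusted p of 0.0550 to 0.215 by limma.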
